A study of Mus musculus with 8 samples.

Results

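The potassium channel genes described here are the rows of the deposited count table whose symbol begins with Kcn followed by a further lower-case letter, as the official mouse nomenclature writes pore-forming subunits of potassium channels, their auxiliary subunits and a few transcripts from their loci. They numbered 98 of the 24552 genes in the table, and 94 of them encode proteins by class, while the other 4 are transcripts from the opposite strand of a channel locus. RNA came from exorbital lacrimal glands (LGs) of female C57BL/6J mice. Controls were fed ad libitum (AL, n = 4 libraries), and the treated mice were on 40% calorie restriction (CR, n = 4 libraries), begun at 6 to 7 months of age and lasting 4 months, so that glands were taken at 10 to 11 months. In the study's account CR was introduced stepwise, and restricted mice received their food once a day shortly before the dark period. On that schedule meal timing differed between the diets together with the amount eaten. The study fed more than one cohort, one of them with a restricted chow enriched in vitamins. It gives the steps and the feeding time after describing that cohort, and the labels do not say which cohort these glands came from. No transgene or drug was involved, and each library is named here by diet and replicate number.

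A tear gland secretes fluid by moving chloride across the apical membrane of its acinar and duct cells, with sodium and water following. Potassium channels let potassium leave the cell during secretion, which holds the membrane voltage negative and so keeps up the drive for chloride to exit. In salivary and lacrimal acinar cells this current is carried mainly by calcium-activated channels, the intermediate-conductance channel encoded by Kcnn4 and the large-conductance (BK) channel encoded by Kcnma1, which open when secretory nerves raise cytosolic calcium. Members of other classes, the voltage-gated Kv channels, the inward rectifiers (Kcnj) and the K2P leak channels (Kcnk), set resting potential and recycle potassium in epithelia, muscle and nerve.

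Libraries were made from the 3' ends of transcripts, so a transcript is counted at its end and counts do not grow with transcript length. Levels are in CPM, with library sizes corrected by relative log expression (RLE) factors, not divided by length. Between 12051881 and 22156511 reads per library were counted on genes. A floor of 3 counts, below which a level was not read, corresponds to between 0.152 and 0.231 CPM, for counting error only. All 7 LG markers listed were counted, 2 of them higher and 5 lower in fitted mean in CR with 1 called each way, with summed levels of 151469 to 166544 CPM in AL and 61017 to 156880 CPM in CR. Transcripts abundant in the mouse parotid gland were also found in every library. All 8 of those listed had a higher fitted mean in CR, 3 of them past the thresholds given below, none was at 0 over all libraries together although some had no count in single AL libraries, and their summed level ranged from 12105 to 44891 CPM in AL and from 59219 to 351032 CPM in CR. The ranges of the diets did not overlap, so the diet and the amount of parotid transcripts cannot be told apart in these libraries. Macrophage markers, all 7 lower in fitted mean and 1 called, summed to 80.7 to 236 CPM in AL and 49.1 to 91.6 CPM in CR. B and plasma cell markers, 2 tested and both lower without a call, summed to 12.5 to 37.2 and 6.07 to 12.6 CPM. White adipose markers, 4 tested and all higher with 1 called, summed to 7.51 to 18.0 and 23.4 to 93.9 CPM, so that these ranges did not overlap between the diets either. Skeletal muscle markers, 5 tested and all higher without a call, summed to 0.859 to 12.5 and 2.19 to 62.2 CPM, and submandibular and sublingual markers, 2 tested and both higher without a call and Smgc at 0, to 1.78 to 469.7 and 237 to 5219 CPM. The part of these cells in the results was not tested. CR replicate 4, at 59219 CPM of parotid markers, was the CR library nearest to AL, and values without it are given where they change a call.

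Of the 98 potassium channel genes, 35 had no count in any library, 45 were counted too rarely to be tested and 18 passed the filter on low counts. The share with no count was 35.7%, against 31.8% of all genes in the table, but of the counted genes 28.6% of the potassium channel genes and 67.0% of all genes could be tested. Those tested included Kcnn4, Kcnma1 and Kcnn1 among the calcium- and sodium-activated channels, Kcna1, Kcna2 and Kcns1 among the Kv subunits, Kcnq1, Kcnh1, the inward rectifiers Kcnj8, Kcnj15 and Kcnj16, the leak channels Kcnk1, Kcnk5 and Kcnk6, the auxiliary subunits Kcnab3 and Kcnip3, and the non-coding Kcnq1ot1. The filter asked for at least 0.653 CPM in 4 libraries, by library sizes before the RLE correction. Kcnj8 and Kcnn1 reached it in 1 AL library only, against 3 and 4 CR libraries, Kcnj16 in 2 AL and 3 CR libraries and Kcnh1 in 4 AL and 2 CR libraries, so these entered the test mainly through the diet in which they were higher.

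CR was compared with AL in edgeR by quasi-likelihood F tests on the 11211 genes tested, with p-values adjusted over all of them by the Benjamini-Hochberg method. A call needed both an adjusted p below 0.05 and a change of 1.5-fold or more. Of the 18 potassium channel genes tested, 2 were called higher, Kcnn4 and Kcns1, and 0 lower, where 1.2% of all genes tested were called higher, 0.785% lower and 1.98% in either direction. At an unadjusted p under 0.05, 7 were higher and 1 was lower, as were 8.62% and 8.1% of all genes. DESeq2 called 5 higher, adding Kcnip3, Kcnj16 and Kcnq1, and 0 lower, and over all genes it called 3.45% higher and 2.83% lower. The limma voom fit called 3 higher, Kcnn4, Kcns1 and Kcnip3, and 0 lower, against 2.11% and 1.43% of all genes. The median log2 fold change was 0.74 over the 18 and 0.01 over all genes tested. A higher fitted mean in CR was found in 14 of the 18, against 51.1% of all genes tested. Some entered through the CR libraries, so these counts describe the genes that passed the filter. The plot of levels by library shows the 14 genes described one by one, and the plot of fold changes 17 of the 18.

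**Figure D1:**
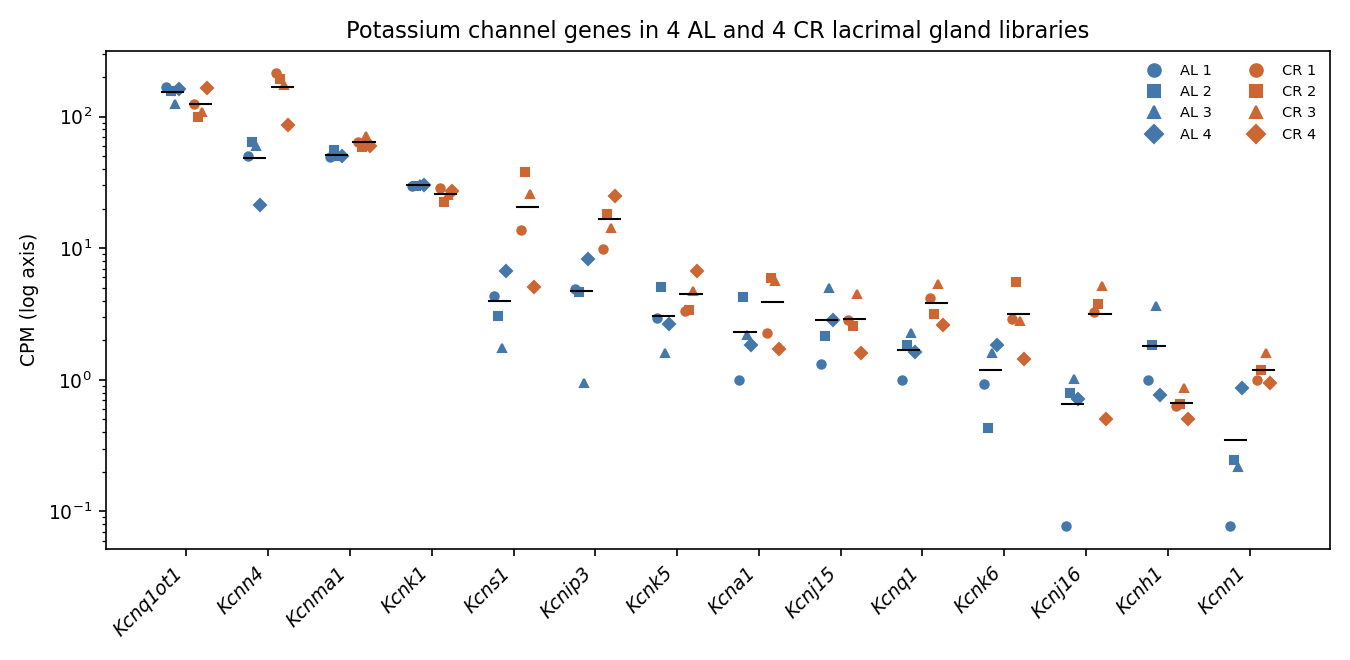
CPM on a log axis of 14 potassium channel genes, ordered by mean level, in 4 AL libraries (blue) and 4 CR libraries (orange), with a symbol for each replicate number and a bar at each diet's mean. Kcnn4 lay between 21.4 and 64.0 CPM in AL and between 86.6 and 213 CPM in CR, while Kcnk1 kept within 22.6 to 31.0 CPM in all 8 libraries.

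**Figure D2:**
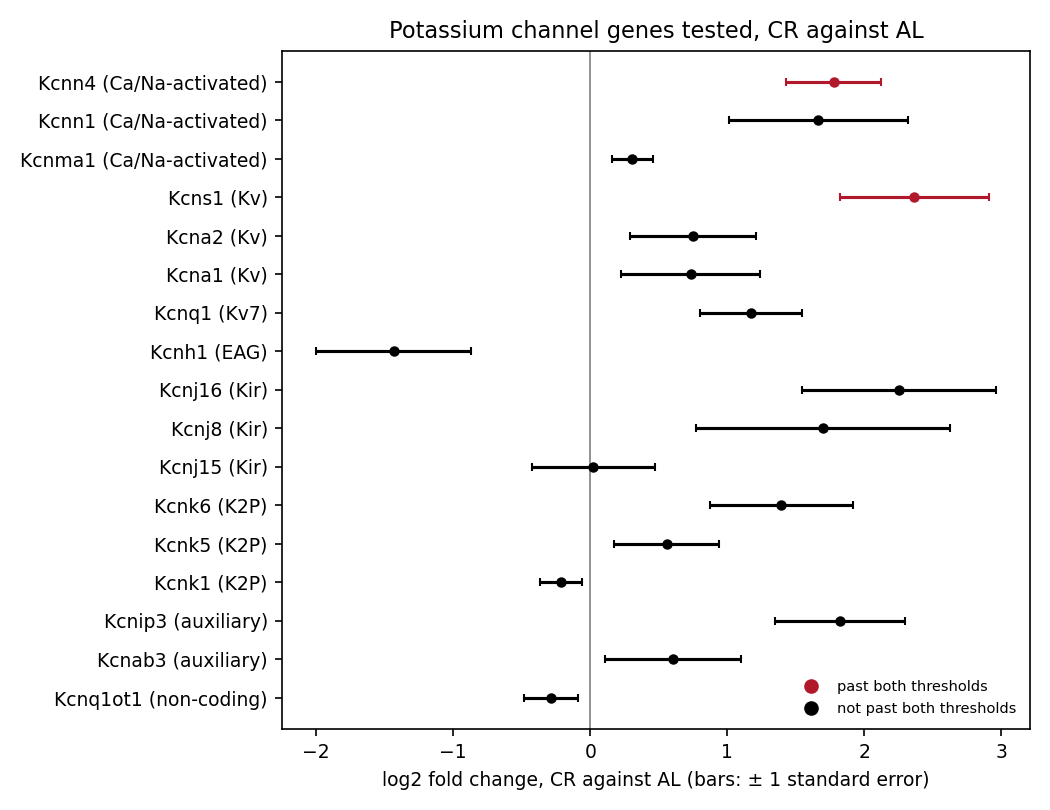
Log2 fold change of CR against AL for 17 of the 18 potassium channel genes tested, grouped by class, with bars of 1 standard error on either side. Kcnn4 at 1.78 and Kcns1 at 2.36, in red, were the genes past both thresholds, and Kcnh1 at -1.43 had the lowest fitted value.

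The promoters of the 2 called genes are printed to show the letters around the starts of the genes the results turn on. RefSeq gives 1 start for each, on GRCm38, the build that mm10 names, and each window runs from 250 bases before the start to 50 after it, read 5' to 3' on the gene's own strand. Capitals mark matches, on either strand, to the E-box CACGTG bound by clock proteins and other helix-loop-helix factors and to the GC box GGGCGG. The AP-1 site TGANTCA, the cAMP response element TGACGTCA and the TATA box TATAAA were searched too and have no match in these 2 windows. None of the matches overlaps another.
Kcnn4, chr7:24370013-24370312, plus strand: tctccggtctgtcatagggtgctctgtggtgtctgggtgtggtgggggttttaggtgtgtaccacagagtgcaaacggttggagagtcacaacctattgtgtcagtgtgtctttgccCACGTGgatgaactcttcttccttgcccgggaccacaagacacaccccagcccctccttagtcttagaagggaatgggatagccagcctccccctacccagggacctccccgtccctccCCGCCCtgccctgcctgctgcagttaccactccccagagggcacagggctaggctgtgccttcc
Kcns1, chr2:164171064-164171363, minus strand: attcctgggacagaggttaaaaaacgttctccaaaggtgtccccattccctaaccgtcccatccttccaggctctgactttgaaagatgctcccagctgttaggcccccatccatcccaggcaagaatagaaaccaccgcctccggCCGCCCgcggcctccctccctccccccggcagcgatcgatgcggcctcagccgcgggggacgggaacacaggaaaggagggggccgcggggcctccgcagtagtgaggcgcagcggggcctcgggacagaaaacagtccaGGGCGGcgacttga
The Kcnn4 window holds 1 E-box, whose first base lies 133 bases upstream of the start, and 1 GC box 14 bases upstream. The Kcns1 window holds 2 GC boxes, 104 bases upstream and 36 bases downstream, and no E-box. Of the 32851 promoter windows in the table, 7.15% hold an E-box and 35.7% a GC box. The GC content was 59.7% for Kcnn4 and 64.0% for Kcns1. A match is a run of letters and was not tested as a binding site.

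The calcium-activated Kcnn4 and Kcnma1 were the most counted protein-coding members. Kcnn4 (Gene ID 16534, chromosome 7 from 24370263 to 24386690, plus strand) had 50.3, 64.0, 59.4 and 21.4 CPM in AL replicates 1 to 4 and 213, 194, 173 and 86.6 CPM in CR replicates 1 to 4. All 4 CR libraries lay above all 4 AL libraries, and replicate 4 was the lowest library of each diet. The fold change was 3.42 (log2 1.78, standard error 0.35, edgeR adjusted p = 0.0277). Of the 8 fits that each left out 1 library, those without AL replicate 4 and without CR replicate 4 kept the call, and in the other 6 the adjusted p lay between 0.0603 and 0.103 while the log2 fold change stayed between 1.64 and 1.93. Replicate 4 of each diet also had the lowest parotid score, the mean log2 CPM of the parotid markers, at 2.64 against 6.10 to 8.44 in the other AL libraries and 10.3 against 11.1 to 13.7 in the other CR libraries. Once this score entered the model as a covariate, the fitted log2 difference for Kcnn4 was 0.26 (standard error 0.51, edgeR adjusted p = 0.880). The score did not overlap between the diets, so this fit cannot separate the diet from the amount of parotid transcripts. The channel encoded by Kcnn4 is also carried by lymphocytes, together with the Kv channel encoded by Kcna3. Kcna3 had 3 counts in all libraries together, and the summed level of 6 T cell markers was 1.85 to 12.5 CPM in AL and 1.06 to 2.13 CPM in CR. These ranges overlapped at their ends, and only 1 of the 6 could be tested, without a call. In whole glands, more cells of a type and more RNA per cell cannot be told apart.

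Kcnma1 (Gene ID 16531, chromosome 14 from 23289431 to 24014491, minus strand), the BK channel's pore-forming subunit, had 49.5, 55.7, 50.2 and 50.7 CPM in AL and 64.4, 59.1, 71.4 and 60.3 CPM in CR replicates 1 to 4. The libraries of the diets did not overlap, and the spread within each diet was small (51.5 ± 2.83 and 63.8 ± 5.55 CPM, mean ± SD, n = 4 each). Its fold change of 1.24 (log2 0.31, standard error 0.15, 95% confidence interval from -0.01 to 0.63) was below the threshold of 1.5, and its edgeR adjusted p was 0.323. Leaving out each library in turn gave a log2 fold change between 0.25 and 0.35, and the parotid covariate gave 0.37 (standard error 0.30). Exons of Kcnma1 overlap 1 annotated gene on the other strand, and the strand setting of the counting is not given in the sources used here.

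The balance of Kcnn4 and Kcnma1 within a library does not depend on the scaling between libraries. There were 0.421 to 1.18 counts of Kcnn4 for each count of Kcnma1 in AL (0.943 ± 0.355, mean ± SD, n = 4) and 1.44 to 3.32 in CR (2.62 ± 0.888, n = 4). The lowest ratios were those of AL replicate 4 and CR replicate 4, and the diets did not overlap. Of all counts on the 94 protein-coding members, Kcnn4 took 15.5 to 34.9% in AL and 38.0 to 58.9% in CR. The highest AL share had a 95% Clopper-Pearson interval from 32.9 to 36.8% and the lowest CR share one from 36.5 to 39.5%, for counting error only, since reads carry no molecular identifiers. Kcnma1 took 29.5 to 36.7% and 15.8 to 26.4%, and Kcnk1 15.9 to 22.0% and 6.03 to 12.0%. Mean levels of Kcnma1 were 51.5 CPM in AL and 63.8 CPM in CR, and those of Kcnk1 30.2 and 26.1 CPM. Shares are parts of a total, so a larger share of Kcnn4 leaves smaller shares for Kcnma1 and Kcnk1. These 3 genes together held 74.2 to 82.6% in AL and 73.8 to 84.6% in CR, with overlapping ranges. The summed level of the 94 genes was 138 to 187 CPM in AL and 228 to 374 CPM in CR, with CR replicate 4 the lowest CR library. Without Kcnn4, Kcnma1 and Kcnk1 the sum was 29.7 to 37.5 CPM in AL and 53.8 to 98.0 CPM in CR. These ratios, shares and sums are descriptions and were not tested.

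**Figure D3:**
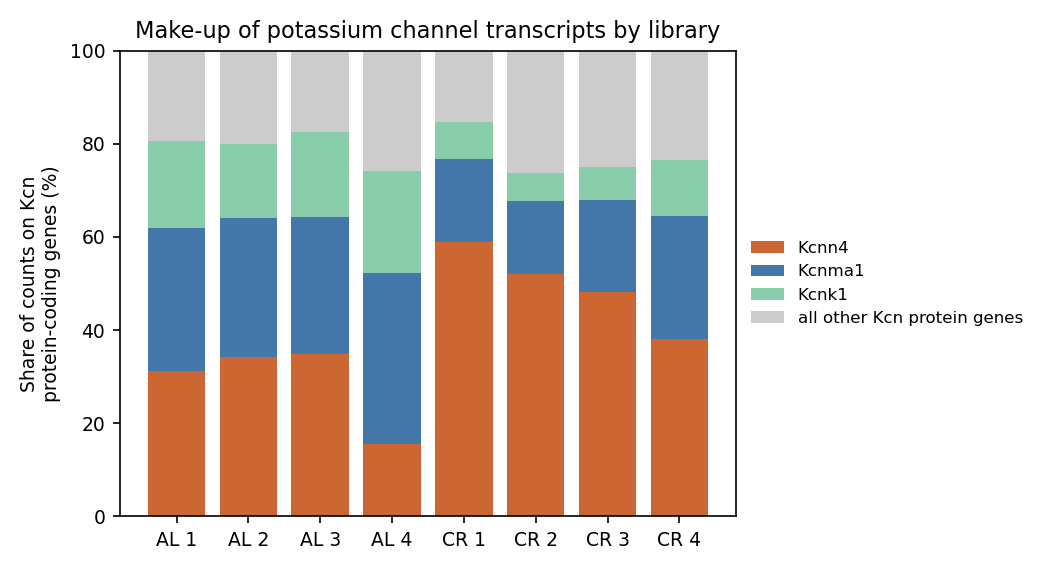
Share in percent of the counts on potassium channel protein genes that Kcnn4, Kcnma1, Kcnk1 and all other members took in each library. Kcnn4 made up 15.5 to 34.9% in the AL libraries and 38.0 to 58.9% in the CR libraries.

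BK channels are joined by auxiliary beta subunits (Kcnmb genes) or, in secretory epithelia, by the gamma subunit LRRC26, which lets them open at negative voltage. The beta subunits were nearly absent here. Kcnmb2 and Kcnmb3 had no count, Kcnmb4 had 7 counts, all in AL replicate 2, and Kcnmb1, the smooth muscle beta subunit, had 5, 2, 2 and 5 counts in AL and 0, 0, 1 and 1 in CR replicates 1 to 4. These are at or near the floor. Smooth muscle and pericyte markers summed to 79.0 to 119 CPM in AL and 38.9 to 77.2 CPM in CR (4 of 5 tested lower and 1 higher in fitted mean, 0 called at the adjusted threshold, none at 0 over all libraries together), ranges that did not overlap, and their part in the Kcnmb1 counts was not tested. Lrrc26, named here after its values were seen, was counted at 30.4 ± 8.44 CPM in AL and 31.1 ± 4.69 CPM in CR. Its log2 fold change was 0.03 (standard error 0.22, edgeR adjusted p = 0.971), a value whose sign changed between settings. The plot of channel subunits beside their partners shows Lrrc26 well above the Kcnmb genes drawn with Kcnma1.

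Of the small-conductance channels, Kcnn1 had 0.0771, 0.245, 0.219 and 0.863 CPM in AL and 0.990, 1.18, 1.61 and 0.944 CPM in CR. AL replicates 1 and 3 rest on 1 and 3 counts, at or under the floor, and AL replicate 4 came close to the CR libraries without reaching them. Its log2 fold change of 1.67 (standard error 0.65) came with an edgeR adjusted p of 0.210. The log2 value was 2.63 without AL replicate 4 (standard error 0.70, edgeR adjusted p = 0.0833) and 4.12 with the parotid covariate (standard error 1.29, edgeR adjusted p = 0.298). Its exons overlap 1 gene on the other strand. Kcnn2 and Kcnn3 had 64 and 10 counts in all, the sodium-activated Kcnt1 and Kcnt2 had 14 and 42, and Kcnu1, the sperm relative of the BK channel, had 22.

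Among Kv subunits, Kcns1 (Gene ID 16538, chromosome 2 from 164163619 to 164171113, minus strand) encodes a subunit that forms no channel by itself and alters the gating of other Kv subunits when it assembles with them. Its levels were 4.31, 3.07, 1.75 and 6.70 CPM in AL and 13.8, 37.7, 25.7 and 5.05 CPM in CR replicates 1 to 4. CR replicates 1 to 3 lay above every AL library, and CR replicate 4 lay within the AL range, below AL replicate 4. The fold change was 5.15 (log2 2.36, standard error 0.54, edgeR adjusted p = 0.0481). Leaving out CR replicate 4 gave a log2 fold change of 2.68 and an adjusted p of 0.00255, while leaving out AL replicates 1, 2 or 3 or CR replicates 1, 2 or 3 took it over the threshold (adjusted p between 0.0644 and 0.162). With upper-quartile factors and with robust dispersions its adjusted p was 0.0519 and 0.116. With the parotid covariate its log2 fold change was 2.40 (standard error 1.14, edgeR adjusted p = 0.440).

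Kcna1, a Kv channel best known from axons, had 1.0, 4.29, 2.19 and 1.83 CPM in AL and 2.26, 5.92, 5.63 and 1.72 CPM in CR. Its groups overlapped (log2 fold change 0.73, standard error 0.51, edgeR adjusted p = 0.523), and CR replicates 2 and 3 were its highest libraries. With 1 library left out, the log2 value ranged from 0.46 without CR replicate 2 to 1.21 without AL replicate 2, never called. Markers of nerve and Schwann cells, 5 tested with 4 higher and 1 lower and none called, summed to 11.3 to 22.4 CPM in AL and 13.2 to 21.2 CPM in CR.

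**Figure D4:**
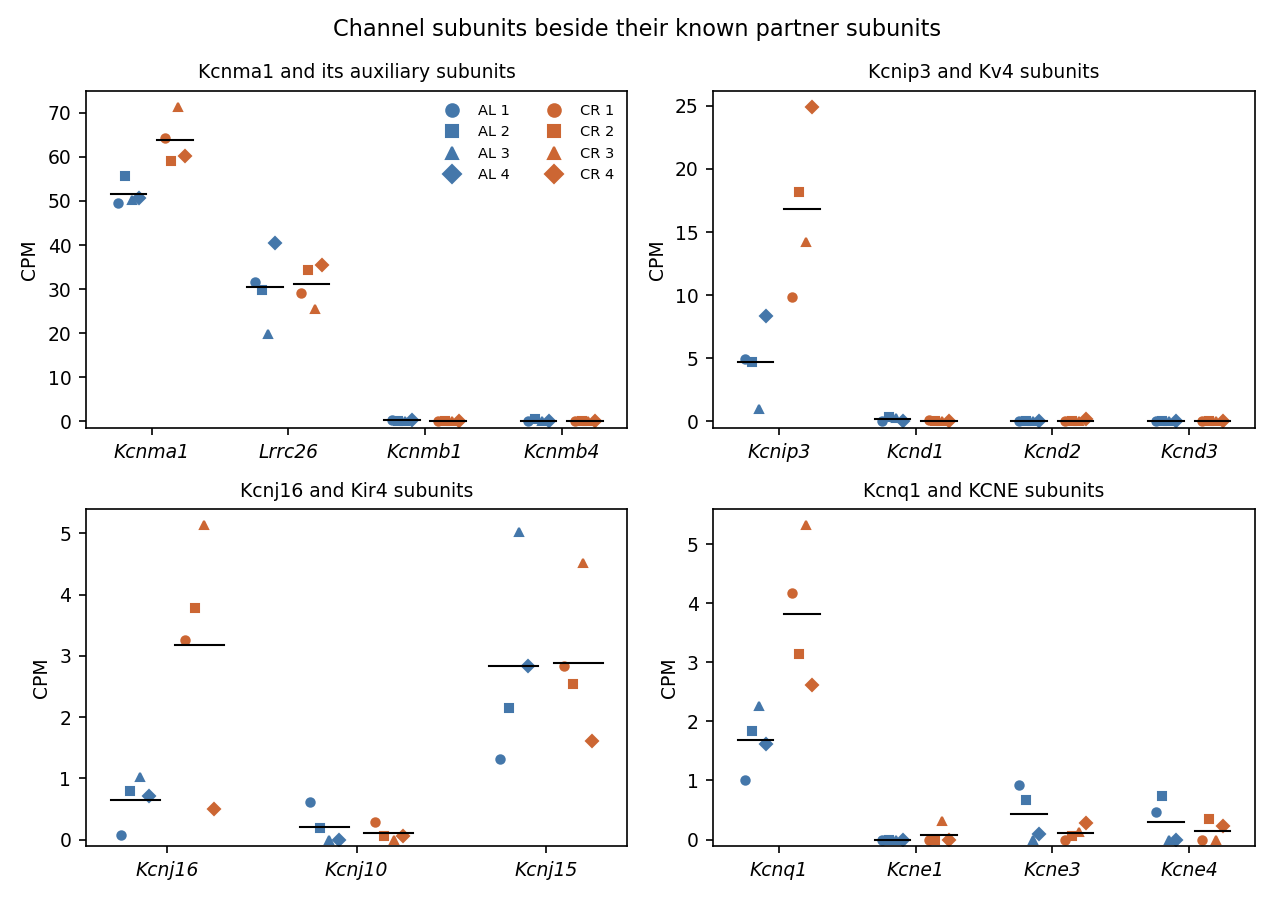
CPM on linear axes of Kcnma1, Kcnip3, Kcnj16 and Kcnq1, each beside subunits known to assemble with them, in 4 AL (blue) and 4 CR (orange) libraries with a bar at each diet's mean. Lrrc26 lay at 30.4 CPM in AL and 31.1 CPM in CR, while no library held more than 0.429 CPM of the Kcnd and Kcnmb genes drawn.

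Kcnip3 (Gene ID 56461, chromosome 2 from 127456498 to 127522094, minus strand) encodes a calcium-binding protein that joins Kv channels of the Kcnd type and is also known as a transcriptional repressor, DREAM, and as calsenilin. It had 4.93, 4.66, 0.947 and 8.32 CPM in AL and 9.83, 18.2, 14.2 and 24.9 CPM in CR replicates 1 to 4. The groups did not overlap, and here CR replicate 4 was the highest CR library, unlike for Kcnn4 and Kcns1. The fold change was 3.53 (log2 1.82, standard error 0.47), and the edgeR adjusted p of 0.0712 missed the threshold. The adjusted p was 0.0035 in DESeq2 and 0.0333 in limma voom, and leaving out AL replicate 4 brought it to 0.0452 in edgeR. The parotid covariate gave a log2 difference of 3.04 (standard error 0.80, edgeR adjusted p = 0.240). Its channel partners Kcnd1, Kcnd2 and Kcnd3 had 11, 3 and 0 counts over all 8 libraries. Of the other Kv-interacting proteins, Kcnip1 and Kcnip4 had no count and Kcnip2 had 20. Kcnab3, a cytosolic beta subunit, was tested without passing (log2 fold change 0.60, edgeR adjusted p = 0.608), and exons of an antisense transcript overlap it.

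Kcnq1 (Gene ID 16535, chromosome 7 from 143106362 to 143427042, plus strand) encodes a voltage-gated channel that recycles potassium at the basolateral membrane of several epithelia when joined by KCNE subunits. Its levels were 1.0, 1.84, 2.26 and 1.62 CPM in AL and 4.17, 3.14, 5.32 and 2.61 CPM in CR, with no overlap between the diets. The log2 fold change of 1.17 (standard error 0.37) came with an edgeR adjusted p of 0.126 and 0.0443 in DESeq2. The subunits Kcne1, Kcne3 and Kcne4 had 5, 33 and 28 counts in all libraries together, and Kcne2 and Kcne1l none. Kcnq1ot1 (Gene ID 63830), the long non-coding RNA that is transcribed from inside Kcnq1 on the other strand and is known for imprinting its neighbours, was the most counted of the 98 rows. It had 169, 156, 124 and 163 CPM in AL and 126, 99.9, 109 and 167 CPM in CR, with overlapping groups (log2 fold change -0.29, standard error 0.20, edgeR adjusted p = 0.529). Its annotated span, from 143203458 to 143296549, overlaps exons of Kcnq1, and without a stated strand setting reads from the overlap cannot be assigned to either gene with certainty.

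Of the 8 ether-a-go-go genes (Kcnh), 4 were counted and Kcnh1 was tested. Kcnh1 had 1.0, 1.84, 3.64 and 0.761 CPM in AL and 0.637, 0.651, 0.867 and 0.50 CPM in CR replicates 1 to 4. The groups overlapped at AL replicate 4 and CR replicate 3, and AL replicate 3 held the highest level. Its log2 fold change of -1.43 (standard error 0.57) came with an unadjusted p of 0.0261 and an edgeR adjusted p of 0.216. Without AL replicate 3 the log2 fold change was -0.85, and with the parotid covariate it was -2.43 (standard error 1.17, edgeR adjusted p = 0.443).

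Among the inward rectifiers, Kcnj16 (Gene ID 16517, chromosome 11 from 110968033 to 111027968, plus strand) encodes a subunit that forms pH-sensitive channels with those of Kcnj10 or Kcnj15. It had 0.0771, 0.797, 1.02 and 0.710 CPM in AL and 3.25, 3.79, 5.14 and 0.50 CPM in CR. CR replicates 1 to 3 stood well above AL, CR replicate 4 lay within the AL range, and AL replicate 1 rested on 1 count. Its log2 fold change was 2.25 (standard error 0.71, edgeR adjusted p = 0.122). Without CR replicate 4 these were 2.61 (standard error 0.56) and 0.0166, past both thresholds. Kcnj15 had 1.31, 2.15, 5.03 and 2.84 CPM in AL replicates 1 to 4 and 2.83, 2.55, 4.52 and 1.61 CPM in CR replicates 1 to 4, with replicate 3 the highest of each diet. The fitted log2 difference was 0.02, with a 95% confidence interval from -0.96 to 1.0, and Kcnj10 had 17 counts in all. Kcnj8, the pore of ATP-sensitive channels in pericytes and vascular smooth muscle, had 0, 17, 1 and 2 counts in AL and 14, 13, 31 and 8 in CR, with overlapping groups.

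The K2P genes carry background potassium current. Kcnk1 (Gene ID 16525, chromosome 8 from 125995170 to 126030685, plus strand), a leak channel found in many epithelia, had 29.7, 29.7, 31.0 and 30.4 CPM in AL and 28.8, 22.6, 25.4 and 27.4 CPM in CR. Its AL libraries lay close together (30.2 ± 0.639 CPM, mean ± SD, n = 4), and no CR library reached the lowest of them. The difference was small, a fold change of 0.862 (log2 -0.21, standard error 0.15, 95% confidence interval from -0.54 to 0.12), and its edgeR adjusted p was 0.534. Exons of 1 gene on the other strand overlap it. Kcnk6 (Gene ID 52150) had 0.925, 0.429, 1.60 and 1.83 CPM in AL and 2.90, 5.57, 2.79 and 1.44 CPM in CR, again with CR replicate 4 in the AL range (log2 fold change 1.40, standard error 0.52, edgeR adjusted p = 0.195). Kcnk5, an acid- and bicarbonate-sensitive epithelial channel, had 2.93, 5.09, 1.60 and 2.64 CPM in AL and 3.32, 3.38, 4.71 and 6.66 CPM in CR (log2 fold change 0.56, standard error 0.38, edgeR adjusted p = 0.519). The log2 value ranged from 0.31 without CR replicate 4 to 0.92 without AL replicate 2, never called.

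Groups that did not overlap were found in 6 of the 18 genes tested, Kcnn4, Kcnma1, Kcnip3, Kcnq1 and Kcnn1 with every CR library above every AL library and Kcnk1 with every CR library below. Among all genes tested this was so in 4.58% and 5.2%. Of the genes named, Kcnn1 reached the filter in 1 AL library only, against 4 CR libraries, so it entered the test mainly through CR. Among the genes with a log2 fold change over 1, Kcns1, Kcnj16 and Kcnk6 overlapped through CR replicate 4, and Kcnj8 overlapped through AL replicate 2. With the parotid covariate the log2 values were 2.40 for Kcns1, 2.24 for Kcnj16 (standard error 1.60) and 1.21 for Kcnk6 (standard error 1.12), none of them called.

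**Figure D5:**
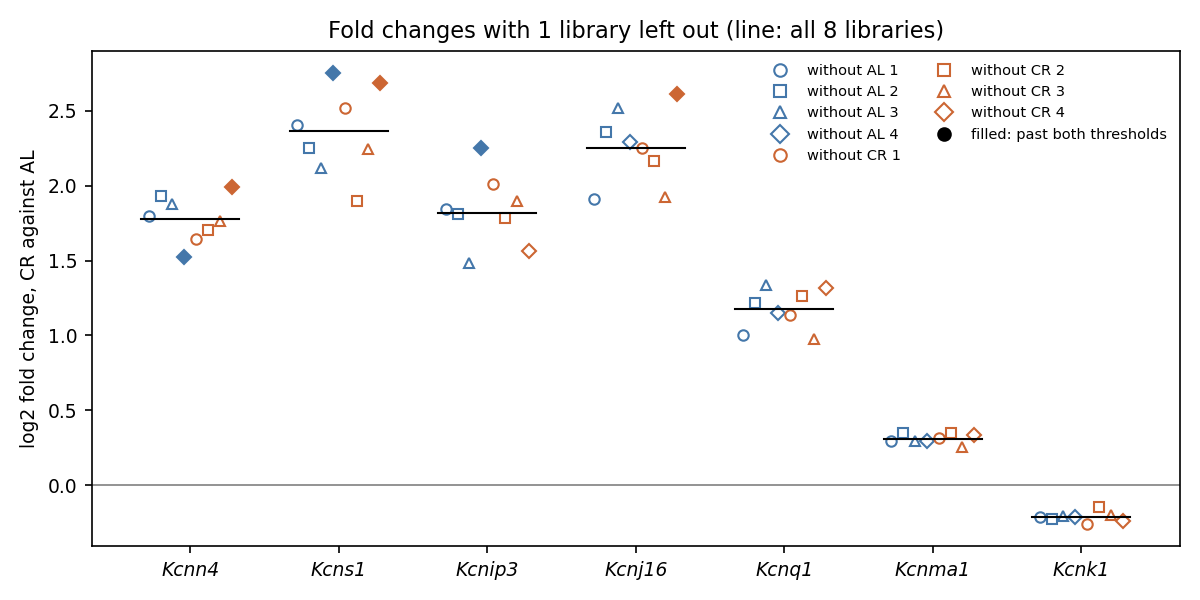
Log2 fold change of CR against AL for 7 potassium channel genes when the 8 libraries were left out in turn, with a line at the value from all 8 libraries and filled symbols where both thresholds were passed. The values stayed on the same side of 0, and the fits without AL replicate 4 or CR replicate 4 were the ones that called any of these genes.

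The other 45 counted members had between 1 and 79 counts over all 8 libraries, 24 of them 10 or fewer, and no library held more than 2.25 CPM of any. Among the highest were Kcnk3 with 71, Kcnn2 with 64 and Kcnab2 with 48 counts. Kcnk3, an acid-sensitive leak channel, had 0, 7, 2 and 0 counts in AL and 10, 38, 14 and 0 in CR replicates 1 to 4, so that 3 CR libraries exceeded AL and CR replicate 4 was at 0. In the edgeR fit without a filter, 4 of the 45 had an unadjusted p under 0.05 (among them Kcnj12, Kcnt1 and Kcnk3), against 14.3% of all genes in that fit, and the smallest adjusted p was 0.237. Kcnj12 and Kcnt1 rest on 19 and 14 counts, all in CR libraries. Rarely counted Kv subunits were Kcna3, Kcna4, Kcna5, Kcna6, Kcnb2, Kcnc1, Kcnc2, Kcnc4, Kcnd1, Kcnd2, Kcng2, Kcng4 and Kcns3. Kcnh2, Kcnh7, Kcnh8, Kcnq5, Kcnj2, Kcnj9, Kcnj10, Kcnj11, Kcnj13, Kcnk2, Kcnk7, Kcnk12, Kcnk13, Kcnab1 and Kcnrg were also among the rarely counted members. With no count were Kcna7, Kcna10, Kcnd3, Kcnf1, Kcng1, Kcng3, Kcns2, Kcnv1 and Kcnv2, then Kcnq3, Kcnh3, Kcnh4, Kcnh5 and Kcnh6, the rectifiers Kcnj1, Kcnj3, Kcnj4, Kcnj5, Kcnj6 and Kcnj14, the leak channels Kcnk4, Kcnk9, Kcnk10, Kcnk15, Kcnk16 and Kcnk18, the auxiliary genes named and the antisense transcripts Kcnd3os, Kcnmb4os1 and Kcnmb4os2. A count of 0 allows a level of up to the floor, 0.152 to 0.231 CPM per library. Among these are Kcnj3 and Kcnj5, subunits of the muscarinic potassium channel of the heart.

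Genes that work with potassium channels outside the Kcn symbols were read from 2 lists, to be set against 51.1% of all genes tested with a higher fitted mean in CR, 1.2% called higher, 0.785% called lower and a median log2 fold change of 0.01. Of 16 channel partners, 7 were tested, 4 higher and 3 lower in fitted mean, with 0 called higher and 1 lower and a median log2 fold change of 0.03. The one called was Tmem38a, whose product TRIC-A is a cation channel of the endoplasmic and sarcoplasmic reticulum that carries potassium against calcium release. It had 63.0, 55.7, 62.5 and 55.2 CPM in AL and 31.4, 19.4, 21.7 and 43.5 CPM in CR, below every AL library in each CR library (log2 fold change -1.03, standard error 0.24, edgeR adjusted p = 0.0497). The call was lost with TMM factors (edgeR adjusted p = 0.0501), with the parotid covariate (log2 -0.81, edgeR adjusted p = 0.490) and in 7 of the 8 fits that left out 1 library, the exception being that without CR replicate 4. Its relative Tmem38b had 0.693, 0.797, 0.219 and 1.22 CPM in AL replicates 1 to 4 and 1.41, 1.95, 2.72 and 0.889 CPM in CR replicates 1 to 4, with CR replicate 4 in the AL range (log2 fold change 1.22, standard error 0.56, edgeR adjusted p = 0.300).

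Of 16 genes of fluid secretion, 14 were tested, 10 higher and 4 lower in fitted mean, with 1 called higher and 0 lower and a median log2 fold change of 0.20, to be read against the same shares of all genes tested (51.1% higher in fitted mean, 1.2% called higher and 0.785% lower). The one called was Atp1b1, the beta subunit of the sodium pump that returns potassium to the cell, at 113, 88.1, 84.7 and 32.9 CPM in AL and 745, 612, 465 and 73.7 CPM in CR (log2 fold change 2.57, standard error 0.57, edgeR adjusted p = 0.0431). Its call was lost with robust dispersions (edgeR adjusted p = 0.132), with the parotid covariate (log2 0.21, edgeR adjusted p = 0.950) and in the 7 fits without 1 library other than that without CR replicate 4. The cotransporter Slc12a2, which loads chloride with sodium and potassium, had 101, 77.3, 68.2 and 36.1 CPM in AL and 433, 576, 338 and 57.4 CPM in CR (log2 fold change 2.32, standard error 0.54, edgeR adjusted p = 0.0505). Slc12a2 was called in 6 of the 11 other settings that kept all libraries. In Atp1b1 and Slc12a2, CR replicates 1 to 3 stood above every AL library and CR replicate 4 within the AL range, as for Kcns1 and Kcnj16, while Kcnn4 in CR replicate 4 stayed above AL. Without CR replicate 4 the log2 fold changes were 2.93 for Atp1b1 and 2.67 for Slc12a2, each past both thresholds, and with the parotid covariate that of Slc12a2 was 0.11 (standard error 0.82, edgeR adjusted p = 0.976). The calcium-gated chloride channel gene Ano1, the apical partner of the calcium-activated potassium channels, had 25.2, 33.9, 17.6 and 37.1 CPM in AL replicates 1 to 4 and 28.7, 95.9, 36.2 and 45.1 CPM in CR replicates 1 to 4. Its groups overlapped, and CR replicate 2 stood highest (log2 fold change 0.86, standard error 0.35, edgeR adjusted p = 0.239, and 0.37 without CR replicate 2).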

How the data were processed

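RNA of 4 AL and 4 CR LGs was sequenced from 3' ends. Per the labels and the study's methods, the authors trimmed reads with cutadapt, checked them with FastQC, aligned them to mm10 with STAR and used HTSeq for counting. The raw counts they deposited were analysed here. Their log2 values normalized with DESeq2 were not used. Tool versions and the strand setting are not given in the sources used here. The study describes the samples of each diet as mice, and p-values measure the spread between these libraries.

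The members and gene lists were chosen with earlier results of these data known. After 5 repeated symbols were dropped from 24557 rows, 24552 genes remained, 16735 with at least 1 count, and 11211 passed edgeR's filterByExpr. Quasi-likelihood F tests of CR against AL, with RLE factors, were run in R 4.3.3 (edgeR 4.0.16). Standard errors were obtained from the fitted log2 difference and the root of F. The biological coefficient of variation was 34.7%. Given with a value in every library are members called, with an unadjusted p under 0.05 or without overlap, the 10 most counted and those among the study's DEGs, and from the partner lists each gene called and 3 of the 4 others with the smallest p. A few genes are not reported here by name. Other gene lists were markers of LG, parotid, submandibular and sublingual glands, smooth muscle, nerve, T cells, B and plasma cells, macrophages, adipose tissue and skeletal muscle.

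Positions come from GENCODE vM21 on GRCm38, where all 98 symbols were found. Windows of 75 bases in the last 600 bases of transcripts were shared with another gene in 1 of the 14 named members, Kcnj15, for 0.266% of its windows. The alternatives tried were upper-quartile or TMM factors, DESeq2 1.42.0 (fold changes shrunken or not), limma 3.58.1 voom with sample quality weights, robust dispersions, no filter, a minimum of 10 counts in all 8 libraries, calls by adjusted p alone, a replicate block, leaving out each library, the mean log2 CPM of 8 parotid markers (prior count 0.5) as a covariate and library sizes without the 50 most counted genes. The pipeline was tested on simulated data.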

Additional observations from a re-analysis of the deposited data

Results flagged for a closer look

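Of the groups of 4 libraries examined, 56 in all, 2 held a library far from the other 3 by Dixon's criterion at the 95% level, where chance gives about 1 in 20. The summed level of the protein-coding potassium channel genes in CR replicate 4 was 228 CPM, against 360 CPM in the nearest other CR library. In CR replicate 1, 27 of the 98 members had a count, against 39 in each other CR library.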

How the results depend on the processing

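Over all genes, DESeq2 called 387 higher and 317 lower, 368 and 303 with shrunken fold changes, limma voom 237 and 160, and the fit without a filter 271 and 167, against 134 and 88. Upper-quartile factors gave 114 and 97 over all genes, and robust dispersions 119 and 86. Potassium channel genes called higher, 2 in the report, were 1 with upper-quartile factors or robust dispersions (Kcnn4), 5 with DESeq2 with or without shrinkage, and 0 of 18 with the parotid covariate in edgeR (at an unadjusted p under 0.05, 2 were higher and 0 lower), where 4 genes were called higher and 0 lower over all genes (720 and 595 at an unadjusted p under 0.05) and the log2 fold change of Kcnn4 was 0.26. Leaving out each library gave 35 to 453 genes called higher, 25 to 247 lower and 0 to 3 potassium channel genes higher, with log2 fold changes of 1.52 to 1.99 for Kcnn4. The 0 came without AL replicates 1, 2 or 3 and without CR replicates 1, 2 or 3, where 6 to 9 were higher at an unadjusted p under 0.05, as were 781 to 924 of all genes, and the 3 came without AL replicate 4 or CR replicate 4. No setting called a potassium channel gene lower. The cause of these differences was not tested.

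Same-numbered libraries of the diets were not treated as pairs, because the correlations of their deviations from the diet means, 0.130, 0.0671, 0.218 and 0.429, were not all over 0.1. Every AL library but replicate 3 correlated best with the CR library of its own number. The replicate block called 388 genes higher and 312 lower and 3 potassium channel genes, adding Kcnip3.

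The log2 fold change changed sign with upper-quartile factors for Kcnj15 (-0.015) and Lrrc26 (-0.0055), with the parotid covariate for Kcnq1ot1 (0.018), and among the fits that left out 1 library for Kcnj15 (-0.28 to 0.44) and Lrrc26 (-0.13 to 0.20). The filter on low counts left 45 of the 63 counted members out of the test.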
